A study of Homo sapiens with 8 samples.

Results

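The introns described here are internal introns that stayed almost free of intronic reads in polyadenylated RNA when the spliceosome was inhibited. The data come from SUM159, an established human breast cancer cell line, grown for 12 h with the SF3b inhibitor H3B-8800 or with its solvent DMSO as vehicle, in biological duplicate. Polyadenylated RNA was sequenced as input or after enrichment with the antibody J2, which binds double-stranded RNA. Vehicle and drug were each sequenced in both kinds of RNA, which gives 4 groups of 2 libraries. None of the labels names a control antibody, so what J2 recovered cannot be assigned to double-stranded RNA, and it is not stated whether J2 and input libraries of the same number share a culture.

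The deposited tables list 142224 introns in 15902 genes and give for each intron the reads taken as inside it and a larger number whose excess was taken as reads spliced across it. The intronic share is the first number as a percentage of the second. An internal intron was eligible if it was neither the first nor the last listed of its gene, had 100 to 19999 bases and had at least 100 reads in all 8 libraries, and 6812 introns in 2018 genes were eligible. Those with an intronic share under 1% in all 4 input libraries are called resistant. They numbered 2387 in 1074 genes, or 35.0% of the eligible introns and 55.0% of the 4343 that were under 1% with vehicle. Their input values chose them and are given as description with no test. Introns under 1% in both input vehicle libraries that reached at least 10% in both input drug libraries are called responding and serve for comparison (206 introns in 177 genes), and 1750 introns lay in between.

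An intron is removed after the spliceosome recognises its ends and, near the 3′ end, its branch point, an adenosine followed by a stretch of pyrimidines. SF3b, part of the U2 particle, holds the branch point, and H3B-8800 binds SF3b at that pocket. An intron that is not removed stays in the RNA as a retained intron, and sequence reads then fall inside it rather than across its junction. Introns of one transcript differ in how readily they are spliced, so inhibition of splicing can leave some introns of an RNA in place while others are removed.

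The last 50 bases of 4 resistant introns and of the responding intron beside each are printed first, since branch point and pyrimidine tract lie there and each pair shares its gene, its RNA and its libraries. The pairs were chosen after their values were seen, as pairs whose ends lie within annotated transcripts. Capitals mark a match to CTNAC on the sense strand 15 to 50 bases before the end, a simple form of the branch point motif, and the final AG.
DYNC1H1 intron 76, resistant: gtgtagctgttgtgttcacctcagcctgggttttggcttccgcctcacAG
DYNC1H1 intron 75, responding: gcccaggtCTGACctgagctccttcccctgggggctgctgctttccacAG
EIF3L intron 10, resistant: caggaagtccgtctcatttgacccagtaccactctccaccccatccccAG
EIF3L intron 11, responding: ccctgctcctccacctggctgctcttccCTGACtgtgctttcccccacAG
HDAC7 intron 23, resistant: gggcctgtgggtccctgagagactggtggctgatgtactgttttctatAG
HDAC7 intron 22, responding: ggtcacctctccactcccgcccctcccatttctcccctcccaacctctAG
DCTN2 intron 4, resistant: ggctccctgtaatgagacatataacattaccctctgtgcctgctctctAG
DCTN2 intron 5, responding: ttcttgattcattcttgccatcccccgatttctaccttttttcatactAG

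On GRCh38 the printed bases lie on the plus strand at chr14:102050021-102050070 and chr14:102049664-102049713 for DYNC1H1 (cytoplasmic dynein heavy chain) and at chr22:37877624-37877673 and chr22:37886715-37886764 for EIF3L (a subunit of translation initiation factor eIF3). They lie on the minus strand at chr12:47785472-47785521 and chr12:47785886-47785935 for HDAC7 (a histone deacetylase) and at chr12:57535155-57535204 and chr12:57534453-57534502 for DCTN2 (a dynactin subunit). In J2 RNA with drug the shares of the resistant introns were 0 and 0.969% for DYNC1H1, 0 and 0 for EIF3L, 0.607% and 0.649% for HDAC7, and 0 and 0 for DCTN2. The responding neighbours stood at 23.4% and 21.4%, 11% and 7.33%, 11.6% and 11.9%, and 12.1% and 7.39%. In each of the 4 pairs both libraries of the neighbour were above both of the resistant intron. Of the 20 bases before the final AG, 14 were pyrimidines in the resistant and 12 in the responding intron of DYNC1H1, 17 and 15 in EIF3L, 13 and 18 in HDAC7, and 16 and 17 in DCTN2. The pairs therefore showed no single order for the tract.

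Only 398 of the 2387 resistant introns (16.7%) and 57 of the 206 responding introns had known last 50 bases, because no genome sequence was at hand and the bases came from annotated transcripts that reach into the intron. A comparison of motif or tract content between the sets is therefore void. Over all 1920 eligible introns with known ends, 507 (26.4%) held CTNAC in that window and the median tract had 15 pyrimidines in 20 bases. Among the most heavily spliced resistant introns, 4 had known ends outside untranslated regions and are shown because they carry the most splicing events per library of all members with such a sequence.
RPL13A intron 5: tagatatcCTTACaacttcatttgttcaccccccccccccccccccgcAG
RPLP0 intron 3: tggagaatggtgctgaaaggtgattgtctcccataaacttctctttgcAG
GAPDH intron 7: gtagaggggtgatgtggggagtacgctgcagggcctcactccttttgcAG
RPL13 intron 4: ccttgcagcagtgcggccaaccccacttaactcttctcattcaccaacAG

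The depth behind the deposited normalization was 47000000 to 57000000 reads per library, and the listed introns held 12612577 to 14643731 reads in each, of which 3.63% to 3.98% were intronic with vehicle and 10.3% to 13.03% with drug. Markers fitted a mesenchymal line in part. Spliced reads per 1000000 reads of depth (RPM), averaged over a gene's listed introns, in the input with vehicle were 51.6 for VIM, 21.3 for SPARC and 20.1 for AXL, while the epithelial CDH1, EPCAM and ESR1 stood at 0.00204, 0.00383 and 0. The keratins KRT8 and KRT18 were present at 16.1 and 20.7, and ZEB1 was low at 0.157. The mesenchymal CDH2 and FN1 stood at 1.12 and 3.41, below both keratins, and the luminal GATA3 at 0.559.

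In the input, 949 resistant introns had no intronic read in any of the 4 libraries, and 652 had none in any of the 8 libraries. Among the members, 1119 had at least 300 reads in every library. The other 1268 had fewer somewhere, and a count of 0 among 100 reads allows a share of up to 3%, so for these the limit of 1% is finer than single libraries resolve. These limits cover counting error only, since the libraries carry no molecular identifiers. The members just inside the limit were ADAM15 intron 12 (a membrane metalloprotease), PSMB6 intron 2 (a proteasome catalytic subunit) and TRUB2 intron 5, whose highest input shares were 0.998%, 0.997% and 0.995%. Just outside it, LYPLA2 intron 5, PRDX6 intron 3 and SNX17 intron 8 each reached 1.00% in 1 input library, from 1 to 4 intronic reads. Both sides of the limit thus hold like introns separated by single reads.

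The J2 libraries were used by the rule only for the minimum of reads, and in them the resistant introns kept a low intronic share. Summed over all 2387 members, the share was 0.0509% and 0.0522% in the J2 libraries with vehicle and 0.213% and 0.211% with drug (means 0.0515% ± 0.000932 and 0.212% ± 0.00142, SD, n = 2). In the input, as description, it was 0.0848% and 0.0799% with vehicle and 0.184% and 0.188% with drug. Every drug library stood above every vehicle library, and the means in J2 RNA differed 4.12-fold. The smallest p that an exact permutation of 2 against 2 libraries can give is 0.333, so the summed shares are given as values.

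The other 4425 eligible introns went from 5.23% ± 0.342 to 21.2% ± 0.349 in J2 RNA (SD, n = 2), a 4.05-fold difference. The factors of the summed shares were thus close while the levels were far apart. With drug the resistant introns still lay below the vehicle level of the other eligible introns. That order follows in part from the rule, since only 4343 of the 6812 eligible introns were under 1% in the input with vehicle. Averaged over introns without weighting, the J2 shares of members went from 0.0562% and 0.0574% to 0.270% and 0.246%. Those of the other eligible introns went from 4.44% and 4.56% to 15.6% and 15.4%. The responding introns went from 0.426% ± 0.0289 to 29.4% ± 0.398, or 69.1-fold. The resistant sum did not rest on the ribosomal protein genes, which hold many of the most spliced members. Without them 2293 members went from 0.0488% to 0.219%, a 4.48-fold difference. The ratio was larger in short members than in long ones. It went from 0.0313% to 0.195% for 1135 introns under 500 bases (6.23-fold) and from 0.127% to 0.221% for 410 introns of at least 2000 bases (1.74-fold). The same order held among the other eligible introns (7.85-fold and 2.31-fold), and these splits were made after the data were seen.

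**Figure D1:**
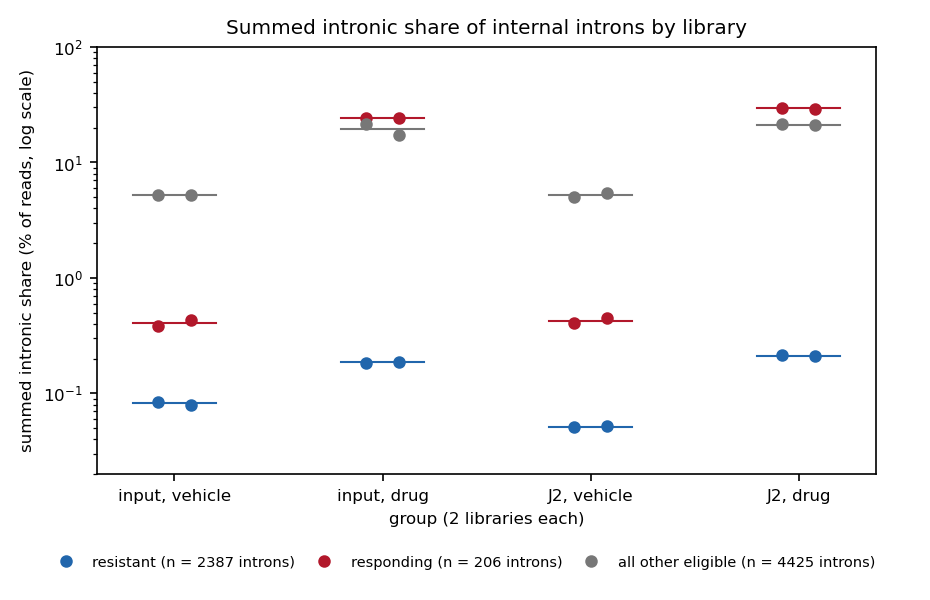
Summed intronic share (percent of reads, log axis) of resistant, responding and all other eligible introns, the responding ones included in the last set, for each group. Points are the 2 libraries and lines their mean; resistant introns stayed between 0.0509% and 0.213% in every library, below the other sets.

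Taken one at a time, most resistant introns stayed under 1% in J2 RNA. With vehicle 2351 of the 2387 (98.5%) were under 1% in both J2 libraries, and with drug 2095 (87.8%) still were. With drug 81 were at or above 1% in both libraries and 211 in 1 of them, and no resistant intron reached 10%. The highest value held in both libraries was 4.66%. By comparison 714 of the other 4425 eligible introns (16.1%) and 0 of the 206 responding introns stayed under 1% with drug. Pooling the 2 J2 libraries with drug, the exact 95% interval lay wholly under 1% for 1537 members, wholly above it for 41 and spanned it for 809, which is as far as the depth resolves.

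The change of the intronic share was tested with edgeR's quasi-likelihood test over all 11831 introns that had at least 100 reads in every library, with Benjamini-Hochberg adjustment. Among the resistant introns 166 rose (6.95%, in 140 genes) and 2 fell, while over all introns tested 40.4% rose and 1.37% fell. Among the other eligible introns 57.4% rose and 0.927% fell, and 800 of the 1750 introns in between (45.7%) and 204 of the 206 responding introns rose. Without adjustment 226 members rose at a p under 0.05. The number depended on each library: without J2 drug replicate 1 or replicate 2 it was 41 in both cases, and without J2 vehicle replicate 1 or 2 it was 97 and 93. Each of those 41 introns was among the 166. By ranges alone, 483 members (20.2%) had both drug libraries above both vehicle libraries and 39 both below, against 55.2% and 4.42% of all introns tested and 73.2% and 3.1% of the other eligible introns. Calls also depend on read number, and 1007 members had no intronic read in any of the 4 J2 libraries. In a fit restricted to introns with at least 10 intronic reads in J2 RNA, 157 of 324 members rose (48.5%) and 2 fell. There 2513 of 3368 other eligible introns (74.6%) and 4730 of all 7019 introns rose. The part of read number in the gap between the sets was not tested.

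**Figure D2:**
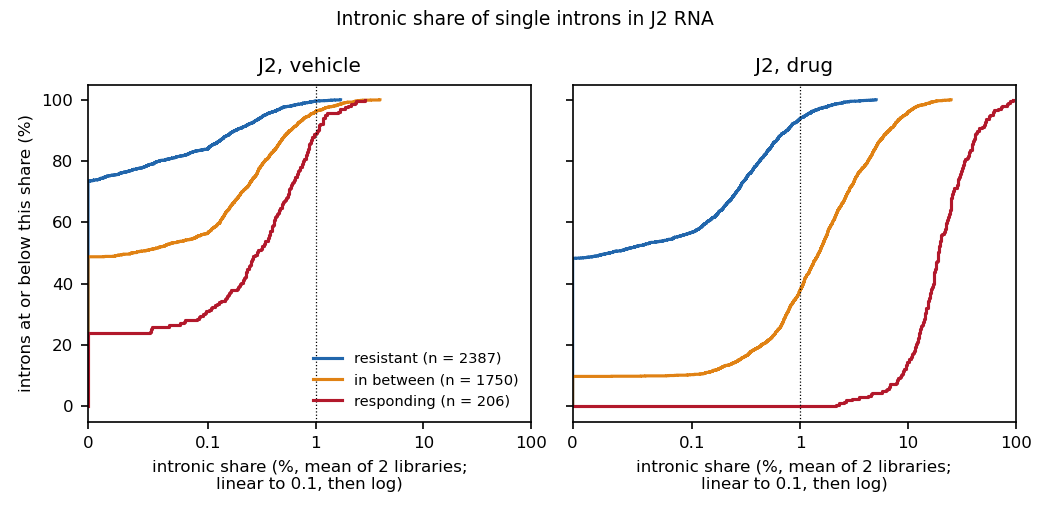
Cumulative percentage of introns against their intronic share in J2 RNA (mean of 2 libraries, linear to 0.1% and logarithmic beyond) for the 3 sets that were under 1% with vehicle in the input. The dotted line marks 1%; with drug the curve of the 2387 resistant introns lies mostly left of it and that of the 206 responding introns wholly right of it.

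Even the 166 resistant introns that rose reached low levels. Their mean share with drug had a median of 0.926% and ran from 0.0337% to 5.06%, and 78 of them were still under 1% in both J2 libraries with drug. In 81 of them no intronic read was seen in J2 RNA with vehicle, so their rise is a lower bound, computed against a floor of 3 reads over both vehicle libraries. The members with the largest fitted rise were of this kind. RPS27 intron 2 (chr1:153991224-153991565, a small ribosomal subunit protein gene) had 0 of 1312 and 0 of 1599 intronic reads with vehicle and 24 of 1260 and 38 of 1925 with drug, shares of 1.90% and 1.97%, at least 18.9-fold higher (edgeR adjusted p = 9.6e-07). COL1A1 listed intron 39 (chr17:50189276-50189376, a collagen I chain) had 0 of 1373 and 0 of 1457 with vehicle and 16 of 1503 and 17 of 1499 with drug, at least 10.4-fold higher (edgeR adjusted p = 5e-05). In both introns the 2 drug libraries agreed closely and lay above the vehicle libraries. In the input with drug the same introns had been at 0.465% and 0.574%, and at 0.0739% and 0.491%.

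Another 5 of the 8 largest rises reached 0.633% to 4.67% in single drug libraries, each from 0 intronic reads with vehicle. SLC25A39 intron 6, of a mitochondrial carrier gene, held its call without any 1 library, at 0.852% and 1.12% (at least 11.8-fold, edgeR adjusted p = 4.3e-05). The other 4 lost their calls without a library. P4HB intron 5 (protein disulfide isomerase) was at 0.633% and 2.32%, with an edgeR adjusted p of 5.4e-05 (0.177 when J2 drug replicate 2 was left out). AARS intron 18 (alanyl-tRNA synthetase) was at 2.96% and 2.74%, with an edgeR adjusted p of 0.00013 (0.0694 or 0.0565 when J2 drug replicate 1 or 2 was left out). COPE intron 5 (a vesicle coat subunit) and STK11 intron 5 (the kinase LKB1) lost theirs without J2 drug replicate 1, where the adjusted p was 0.0704 and 0.121.

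The 2 introns whose share fell both overlap another annotated exon of their own gene, as do 256 of the 2315 members matched to GENCODE 29. Whether reads of those exons were counted as intronic was not tested. RPS19 intron 3 (chr19:41861213-41869030) went from 0.832% and 0.703% to 0.367% and 0.365% (log2 fold change -1.06 ± 0.16, SE, edgeR adjusted p = 1.0e-06), with both drug libraries below both vehicle libraries. SSR2 intron 4 (a translocon-associated protein) went from 0.545% and 0.434% to 0 and 0.0967% (edgeR adjusted p = 0.0323). Without any 1 of the 4 libraries the adjusted p for SSR2 was 0.104 to 0.320.

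The highest shares of members in J2 RNA with drug, picked after the values were seen, included those of PLXNB2, COL6A1, ZDHHC8 and PACSIN2. PLXNB2 intron 35 (a semaphorin receptor) was at 0.254% and 0 with vehicle and at 4.85% and 4.66% with drug. COL6A1 intron 33 was at 0 and 0.930% and then at 4% and 4.71%. In the input with drug these 2 introns had been at 0.943% and 0.962% and at 0.397% and 0.749%, from 1 or 2 intronic reads in each library. The calls of PLXNB2 and COL6A1 were lost without either J2 drug library (adjusted p 0.0918 and 0.0651, and 0.241 and 0.359). The call of COL6A1 was also lost without J2 vehicle replicate 1 (0.141). ZDHHC8 intron 6 reached 3.85% and 3.29% and PACSIN2 listed intron 3 reached 3.92% and 3.26%, both from 0 intronic reads with vehicle. The PACSIN2 intron overlaps an annotated exon on its strand. As this intron was not matched to a GENCODE transcript, an exon of PACSIN2 and one of another gene were not told apart. The call of ZDHHC8 was lost without any 1 of the 4 libraries (0.0602 to 0.264) and that of PACSIN2 without J2 drug replicate 1 (0.0623).

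The most heavily spliced members show how small a share a deep count can resolve. They lie in housekeeping genes, and ribosomal protein, GAPDH and ferritin genes have many processed copies in the genome, so their reads are uncertain where the counting could split them. GAPDH intron 7 (chr12:6537391-6537583, a glycolysis enzyme) had 5 of 47695 and 2 of 49093 intronic reads in J2 RNA with vehicle and 99 of 44696 and 134 of 45073 with drug. Its share thus went from 0.0105% and 0.00407% to 0.221% and 0.297% (35.9-fold, exact 95% counting interval 17.1 to 90.3, log2 fold change 5.11 ± 0.41, SE, edgeR adjusted p = 3.5e-12). The drug libraries lay far above the vehicle libraries, and all 4 were still under 1%. RPLP0 intron 3 (chr12:120199206-120199309, the ribosomal stalk protein) went from 0.010% and 0.0193% to 0.169% and 0.167% (log2 fold change 3.49 ± 0.38, SE, edgeR adjusted p = 3.0e-09). RPL13A intron 5 (chr19:49491100-49491424) went from 0.0307% and 0.0243% to 0.105% and 0.0814% (log2 fold change 1.76 ± 0.35, SE, edgeR adjusted p = 9.5e-05, or 0.0611 when J2 drug replicate 1 was left out). This intron overlaps an exon of another gene on its strand.

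The same list of 8 also held introns that showed no called change at like depth. RPS7 intron 2 (chr2:3575685-3575816) had 2 of 44082 and 0 of 44245 intronic reads with vehicle and 3 of 59291 and 3 of 49796 with drug (edgeR adjusted p = 0.680). RPL3 intron 2 (chr22:39317630-39318399) had 0 of 32069 and 1 of 32191 and then 2 of 41889 and 0 of 40475. FTL intron 2 (ferritin light chain, chr19:48965917-48966280) stayed at 0.00819% to 0.0221% in the 4 J2 libraries, with overlapping groups. RPL13 intron 4 (chr16:89561752-89562334) was at 0.0101% and 0.00494% and then at 0.0227% and 0.0215% (edgeR adjusted p = 0.171). FTH1 intron 2 (ferritin heavy chain, chr11:61965113-61965368) went from 0 and 0.0277% to 0.409% and 0.926% (edgeR adjusted p = 1.8e-11), but overlaps an exon on the other strand.

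Resistant and responding introns often sat in the same gene. In 98 genes both kinds were present, and in 50 pairs they were direct neighbours. In J2 RNA 7 pairs, named for a strong neighbour, repeated the split seen in the input. ABLIM3 encodes an actin-binding LIM protein, and its intron 12 (chr5:149246547-149247781) had 0 intronic reads in all 8 libraries, among 1092 and 1127 reads in J2 RNA with vehicle and 234 and 270 with drug. A count of 0 in the 2 drug libraries together allows up to 0.595%. Its intron 13 (chr5:149247930-149249814) went from 0.742% and 0.662% to 60.9% and 60.7% (log2 fold change 6.41 ± 0.18, SE, edgeR adjusted p = 2.0e-23). Spliced reads fell by 2.05 ± 0.09 on the log2 scale at intron 12 and by 2.22 ± 0.09 at intron 13 (SE, edgeR adjusted p = 7.8e-07 and 7.2e-07), so both junctions lost reads while only the second intron gained intronic ones.

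CD151 encodes a tetraspanin, and its intron 6 (chr11:837355-837459) was at 0 and 0.0373% with vehicle and at 0 and 0.0537% with drug, while intron 5 (chr11:836844-837249) went from 0.431% and 0.362% to 50.5% and 51.0%. A single exon separates an intron with almost no intronic reads from one in which they made up most of the reads with drug. Intron 6 overlaps an exon on the other strand, for which strand-specific counting is not stated, and intron 5 contains another annotated exon of CD151.

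LAMB1 intron 23 (laminin beta-1) and LETM1 intron 11 (a mitochondrial inner membrane protein) had no intronic read in any of the 4 J2 libraries, beside neighbours at 42.7% and 43.8% and at 26.2% and 23.9% with drug. In the 2 drug libraries together these counts of 0 allow up to 1.30% for LAMB1 and 0.815% for LETM1. AUP1 intron 8 (an endoplasmic reticulum protein) was at 0 and 0 with vehicle and at 0.358% and 0.214% with drug, beside a neighbour at 31.3% and 31.5%. UBN1 intron 10 (a histone chaperone subunit) had 0.844% and 0 with drug beside 20.1% and 15.7%, and PTPRF intron 21 (a receptor phosphatase) had 1.60% and 0 beside 33.9% and 32.2%. In these 5 pairs every drug library of the neighbour lay above every J2 library of the resistant intron, and no resistant intron of the 5 passed the share test.

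**Figure D3:**
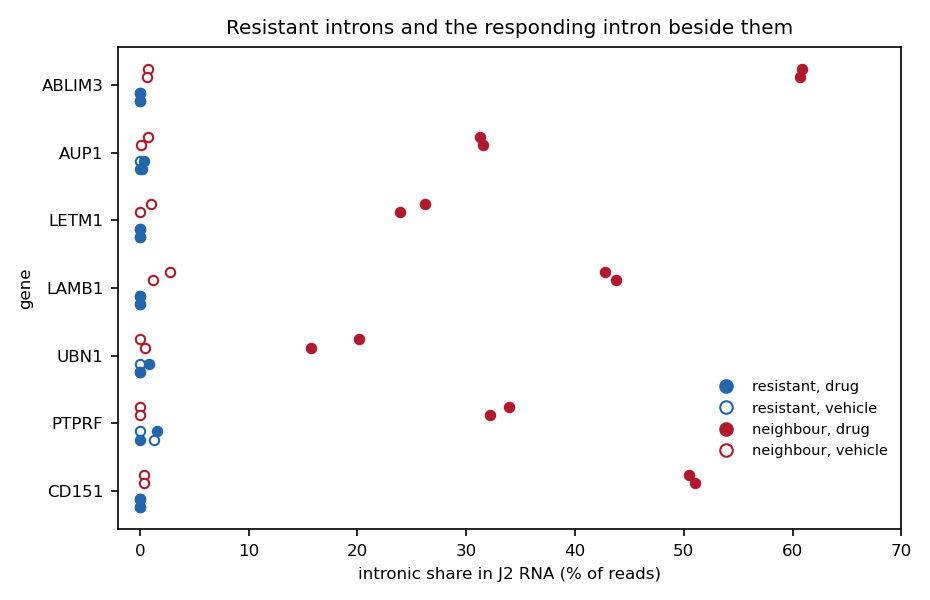
Intronic share in J2 RNA (percent of reads, linear axis) of 7 resistant introns and of the responding intron directly beside each, by gene. Each point is a library, filled with drug and open with vehicle; with drug the neighbours lie between 15.7% and 60.9% and the resistant introns between 0 and 1.60%.

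Membership was partly shared along genes. Among 3947 pairs of adjacent eligible introns, 770 held 2 members, 1404 held 1 and 1773 held none. The intron next to a member was itself a member in 52.3% of cases, against 37.3% for an intron in any such pair. Of the 908 genes with at least 3 eligible introns, 44 had members only and 240 had none. In 766 genes at least 1 resistant intron and at least 1 eligible intron that was not resistant occurred together, adjacent or not, and 562 genes had a single member. At the other end, 28 genes with at least 8 members held 342 of the 2387.

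COL1A1, the gene of the collagen I alpha-1 chain, held the most, with 39 of its 40 eligible introns, of 101 to 721 bases. Summed over these 39, the intronic share was 0.0128% and 0.0192% in J2 RNA with vehicle and 0.0916% and 0.0866% with drug, from 5 and 8 and then 37 and 36 intronic reads. Its only eligible intron outside the set averaged 0.781% over the 2 input drug libraries. COL5A1 (collagen V) held 22 of 53, COL6A1 (collagen VI) 17 of 24, MYH9 (non-muscle myosin heavy chain) 15 of 31, TLN1 (talin) 15 of 23 and ITGA3 (integrin alpha-3) 14 of 19. MYH9 also held 3 responding introns and TLN1 held 1. These 6 genes therefore differ, from nearly all eligible introns resistant in COL1A1 to a minority in COL5A1 and MYH9. The median length of their resistant introns differed too, at 162 bases in COL1A1, 922 in COL5A1 and 1084 in MYH9. The part of length and depth in these counts was not tested.

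SF3B2 and COL5A2 are described as well, a choice made with their values in view. SF3B2, a subunit of the drug's own target complex, had 13 of 17 eligible introns resistant, with a summed J2 share of 0.0232% and 0.0220% with vehicle and 0.0759% and 0.0247% with drug. COL5A2 had 12 of 12, with 0 and 1 intronic reads among 1605 and 1500 with vehicle and 0 and 0 among 2202 and 2589 with drug. Spliced reads of all 12 COL5A2 introns rose in J2 RNA, with a median log2 fold change of 0.70 (edgeR, adjusted p under the threshold of 0.05 for each).

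**Figure D4:**
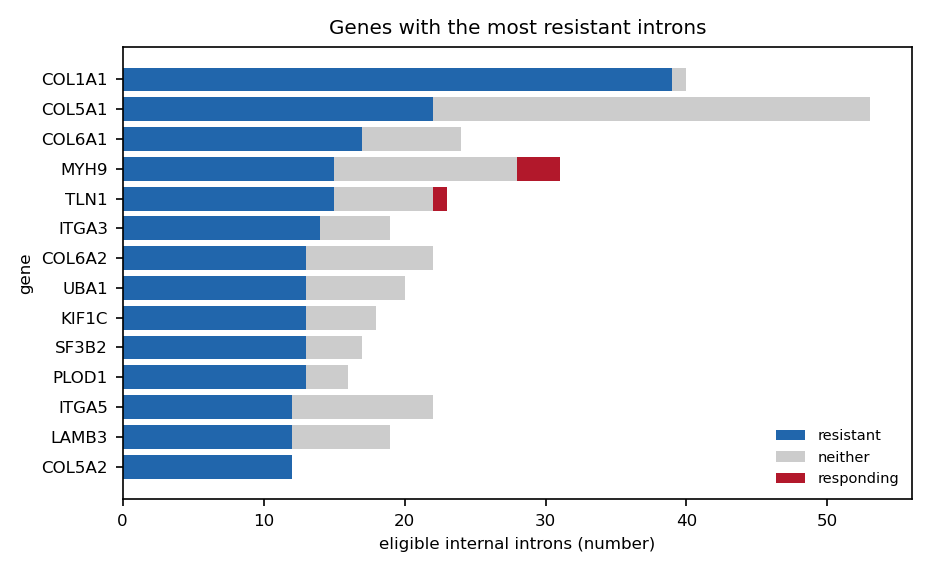
Number of eligible internal introns of the 14 genes with the most resistant introns, split into resistant, responding and neither. COL1A1 has 39 resistant introns of 40, COL5A2 has 12 of 12, and responding introns appear in MYH9 (3) and TLN1 (1).

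Genes were also grouped in 21 lists by function. Large ribosomal subunit genes had 61 of 86 eligible introns resistant (70.9%), small subunit genes 33 of 49 (67.3%), the TRiC chaperonin with HSP70 and HSP90 chaperones 13 of 19 (68.4%), and extracellular matrix and adhesion genes 173 of 261 (66.3%). Translation factors had 63 of 103 (61.2%) and the SF3b complex 17 of 27 (63.0%), against 35.0% of all eligible introns. In the SF3b list the gene SF3B2 alone held 13 of the 17 resistant and 17 of the 27 eligible introns. At the low end stood vesicle coat and endocytosis genes with 9 of 44 (20.5%), interferon-stimulated and NF-kB genes with 5 of 16 (31.3%) and nuclear pore and export genes with 1 of 9. The DNA replication list had no eligible intron. These shares move with depth, since members made up 27.6% of eligible introns whose lowest library had under 200 reads and 61.1% of those with at least 1000, and the part of depth in the order of the lists was not tested.

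Between these ends lay double-stranded RNA sensing and handling genes with 7 of 13, other spliceosome components with 43 of 80, nonsense-mediated decay and exon junction genes with 17 of 32, and SR and hnRNP proteins with 41 of 78. Proteasome subunits had 31 of 63, actin, myosin and cytoskeletal linkers 78 of 159, lysosome and cathepsin genes 17 of 35, glycolysis enzymes 28 of 59, kinesin, dynein and mitotic genes 21 of 47, aminoacyl-tRNA synthetases 25 of 57 and cholesterol genes 11 of 28. Responding introns made up 3.02% of all eligible introns. They were 11 of 159 (6.92%) in the cytoskeletal list, of which FLNA (filamin) held 4 and MYH9 held 3, and 4 of 44 (9.09%) in the vesicle coat and endocytosis list. Those 4 were AP3D1 listed introns 19, 23 and 25 and COPG1 listed intron 4, so most came from AP3D1. In 8 of the 20 lists with eligible introns there was none, among them the SF3b and the other spliceosome lists, and with 3.02% as background few or none would be expected in lists of this size.

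Among the members of each list, the share test in J2 RNA called 21 rises of 61 in large subunit genes, 11 rises and 1 fall of 33 in small subunit genes, 8 rises of 173 in matrix genes (4.62%) and 5 of 63 in translation factors (7.94%), against the 6.95% of all members. It called 5 of 17 in lysosome and cathepsin genes and 4 of 25 in aminoacyl-tRNA synthetases. It called 0 in 8 of the 20 lists. These included 0 of 17 in the SF3b list, 0 of 43 in the other spliceosome list, 0 of 13 in the chaperone list and 0 of 21 in the mitotic list, and in these 4 lists the unadjusted edgeR count and the adjusted DESeq2 count were 0 as well. At the 6.95% of all members a list of 13 to 21 would hold about 1 call, so a count of 0 there is near the background. The other spliceosome list, with 43 members, is larger than that, and its count of 0 was not tested against the background. The summed share with drug of the large subunit members was 0.215% ± 0.00106 and that of the matrix members 0.190% ± 0.00543 (SD, n = 2), near the 0.212% of all members, while the ribosomal members had the deeper counts, whose part in the number of calls was not tested.

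Of the most spliced members of the 20 lists, 1 from each, 5 rose by the edgeR test. The risers were GAPDH intron 7 and RPL13A intron 5, described above, with PSMA7 intron 4, CTSB intron 4 and YARS intron 11. PSMA7 (proteasome) went from 0 and 0.0337% to 0.464% and 0.654% (edgeR adjusted p = 1.3e-05). CTSB (the lysosomal protease cathepsin B) went from 0.0301% and 0 to 0.719% and 0.610% (edgeR adjusted p = 2.6e-05). PSMA7 and CTSB kept their calls without any 1 of the 4 libraries. YARS (tyrosyl-tRNA synthetase) went from 0.0714% and 0.430% to 1.04% and 1.04% (edgeR adjusted p = 0.0422), a call lost without J2 vehicle replicate 1 (0.213), J2 drug replicate 1 (0.328) or J2 drug replicate 2 (0.305), and with DESeq2 (0.223) and limma (0.0858 at pseudocount 1). The YARS intron overlaps another annotated exon of its own gene. VIM intron 5, HSPA5 intron 2, HNRNPA1 intron 8 and SF3B2 intron 16 were among the 15 without a call, and EEF1G intron 4 (elongation factor 1 gamma) had 0 and 3 intronic reads among 14149 and 15731 with vehicle and 0 and 0 among 19500 and 18153 with drug.

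**Figure D5:**
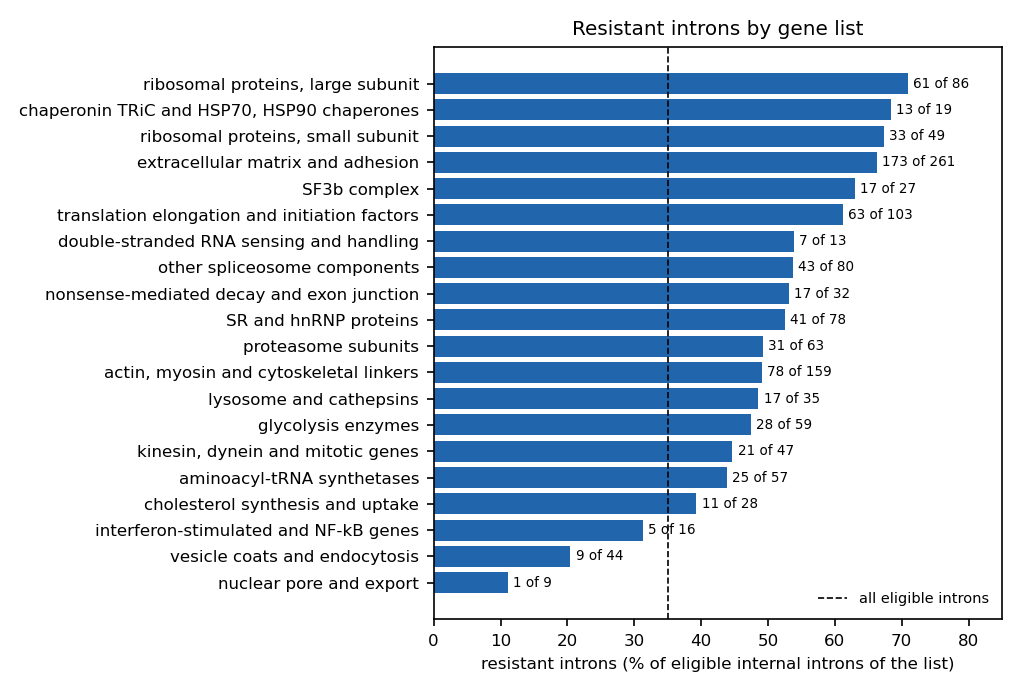
Resistant introns as a percentage of the eligible internal introns of each of 20 gene lists with at least 5 eligible introns; labels give the counts and the dashed line the 35.0% of all eligible introns. Large ribosomal subunit genes are highest (61 of 86) and nuclear pore and export genes lowest (1 of 9).

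The splicing output across resistant introns was next compared in J2 RNA, using spliced reads scaled to depth. Among the 2387 members 615 rose (25.8%) and 1067 fell (44.7%), and the median over members was -0.18 on the log2 scale (edgeR, adjusted p under 0.05). Over all introns tested 25.9% rose and 47.2% fell, so the members' counts were near the background. The split moved with the scaling, to 917 higher and 770 lower with TMM factors and to 912 and 773 with median-of-ratios factors. Of the other eligible introns 21.7% rose and 54.1% fell (median -0.36), and of the responding introns 30 rose and 142 fell (68.9%, median -0.61). Values scaled to depth are relative. From the J2 libraries alone, a change in RNA level, in recovery with J2 or in the rest of the library cannot be told apart.

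The largest rises among members were in RPL7, RPL4, TRIO, EEF1A1 and NAP1L1. TRIO intron 12 (a guanine nucleotide exchange factor, chr5:14358348-14359356) went from 3.25 and 3.16 to 23.6 and 22.0 spliced RPM (log2 fold change 2.83 ± 0.09, SE, edgeR adjusted p = 4.7e-07), with no overlap between groups and at most 2 intronic reads in a library. RPL4 intron 5 went from 4.11 and 3.68 to 31.8 and 33.6 RPM, and EEF1A1 listed intron 3 from 16.1 and 14.96 to 67.4 and 139.6. The drug libraries lay far apart in EEF1A1 and also in RPL7 intron 5 (15.8 and 35.0 RPM). These genes have near-identical copies elsewhere in the genome, so their values are uncertain. The input, given as description with no test, did not move with J2 RNA in all of the named rises. Mean input RPM with vehicle and then with drug was 5.37 and 15.4 for TRIO and 9.80 and 11.3 for RPL4. It was lower with drug in EEF1A1 (56.8 and 19.7), RPL7 (6.62 and 2.24) and NAP1L1 (7.81 and 6.25).

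The largest falls were in CDC25B, HNRNPU, UQCRC1, SEC11C and IGFBP3. CDC25B intron 12 (a mitotic phosphatase, chr20:3803207-3803403) went from 16.7 and 16.9 to 3.36 and 2.83 spliced RPM (log2 fold change -2.44 ± 0.11, SE, edgeR adjusted p = 7.4e-07). HNRNPU intron 12 (chr1:244855045-244855423) went from 18.1 and 17.6 to 3.62 and 3.02, and UQCRC1 intron 4 (a respiratory complex III subunit, chr3:48604432-48604650) from 22.4 and 19.8 to 4.10 and 3.75. HNRNPU intron 12 and UQCRC1 intron 4 had no intronic read in any J2 library. These junctions thus lost reads without reads appearing inside the intron, and the other introns of their genes were not examined for this comparison.

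Recovery with J2 was compared with vehicle alone, as spliced reads of J2 libraries over those of input libraries. Among the members 827 were higher (34.6%) and 942 lower (39.5%), with a median log2 difference of -0.04 (edgeR, adjusted p under 0.05), against 34.4% and 34.3% of all introns tested and 35.8% and 29.8% of the other eligible introns. The members were thus at the background for higher recovery and somewhat above it for lower recovery. By number, the lists with the most members of low recovery were matrix and adhesion genes, with 157 of 173 members lower (median -0.80), and cytoskeletal genes, with 61 of 78 lower (median -0.53). Smaller lists also had mostly lower members, with 7 of 7 in double-stranded RNA sensing and handling genes (median -0.65) and 9 of 11 in cholesterol genes (median -0.52). Translation factors went the other way, with 39 of 63 higher and 16 lower. So did proteasome subunits, with 19 of 31 higher and 4 lower, and glycolysis enzymes, with 18 of 28 higher and 8 lower. Introns of a gene share its mRNA, so these counts are not independent, and COL1A1 alone gives 39 of the 173 matrix members.

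Resistant introns were also compared with the others by length, flanking exons and annotation. Their median length was 547 bases, against 504 for responding and 1020 for all other eligible introns, and members made up 45.2% of eligible introns under 500 bases, 33.7% of those of 500 to under 2000 and 22.7% of longer ones. The share was not corrected for length. The exons beside resistant introns had a lower GC content, with a median of 56.1% before and 55.7% after the intron. It was 58.9% and 59.8% for responding introns and 58.0% and 57.8% for all other eligible introns. The difference from responding introns after the intron was -4.08 percentage points over all lengths and -1.65 in introns of at least 2000 bases, of which 27 were responding. Flanking exons had median lengths of 119 and 118 bases beside resistant introns and 129 and 129 beside responding ones.

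The exon before a resistant intron ended in G in 83.2% of cases and in AG in 56.5%, against 80.6% and 52.9% for responding introns, and the next exon began with G in 53.2% and 51.0%. The exon bases were known for all 2387 members. In the GENCODE 29 annotation 426 resistant introns (17.8%) overlap an exon of a transcript of the same gene annotated as a retained intron, against 58 of the 206 responding introns (28.2%) and 30.3% of all eligible introns. Other exons of the same gene overlapped 256 members (10.7%), against 20.4% of all eligible introns. Exons counted as of another gene overlapped 70 on the same strand (2.93%) and 77 on the other strand (3.23%), against 3.58% and 4.98%. Only the 2315 matched members could be assigned exons of their own gene. In the unmatched members such exons were counted as of another gene on the same strand. These are descriptions with no test.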

How the data were processed

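The labels' protocols give a stranded mRNA kit with polyA selection, and the submitters' processing notes name HISAT2 2.0.4 with the builds mm10 and hg38; the counting program and its strand setting are not given in the sources used here. The deposited tables hold 2 whole-number counts per intron with no normalization and an RPKM, which the authors computed from the intronic count, the intron length and a rounded depth; that depth served as library size. No header names the columns, so their meaning was inferred from the values; 18 introns of at most 9 bases lack values. Spliced reads are the larger count minus the smaller, and RPM values are spliced reads per 1000000 of that depth.

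The shares were tested with edgeR 4.0.16 on intronic counts with the log of all reads of the intron as offset, and spliced reads with depth as library size, each fit holding only the 4 libraries compared, with Benjamini-Hochberg adjustment over 11831 introns. SE was derived from edgeR's F statistic (log2 change divided by its root). DESeq2 1.42.0, limma 3.58.1 (pseudocount 1 or 0.5) and other scalings were alternatives, and the fits were tested on simulated data. Introns were numbered by GENCODE 29 transcripts where matched (2315 members), otherwise by listed order. Sequences were assembled from GENCODE 29 transcripts on GRCh38.

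Members and lists were chosen with earlier results of these data known. Introns named with values follow a rule: the 8 most spliced members, 8 beside the strongest responding neighbour, up to 8 rises and 5 falls of share, 5 rises and 5 falls of spliced reads, the 6 genes with most members, 3 on each side of the limit and the most spliced member of each list. Replicate libraries differed beyond sampling noise (chi-square per degree of freedom 1.84 to 8.83). Some introns that the rule names are not reported here.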

Additional observations from a re-analysis of the deposited data

How the results depend on the processing

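The number of resistant introns was 1119 with at least 300 reads and 4773 with intronic reads per 100 bases, and the limits of 2% and 0.5% gave 3226 and 1684. The share with J2 was 0.0837% with vehicle and 0.355% with drug at 2%, 0.0320% and 0.140% at 0.5%, and 0.207% with drug at 300 reads; single J2 libraries gave 0.0509% to 0.0522% and 0.211% to 0.213%. Rises of share numbered 166, but 328 and 68 at the limits of 2% and 0.5%, 83 with DESeq2 (adjusted p not available for 2067 members), 552 and 492 with limma at pseudocounts 1 and 0.5, and 41 to 97 without a library. Same-numbered libraries correlated at 0.142 between the J2 vehicle and J2 drug groups and at -0.087 to -0.011 between the other groups, so the numbers, which no label says mark a shared culture, were not taken as pairs. All 78 rises left with a replicate block were among the 166, as were the 83 with DESeq2. Of limma's 552 rises and 70 falls at pseudocount 1, 211 and 51 had no intronic read in J2 RNA, where its ratio moves with spliced reads alone. Falls numbered 2, and 5, 0, 1, 70, 63 and 1 at 2%, at 0.5%, with DESeq2, with limma at pseudocounts 1 and 0.5, and with the replicate block, 0 in members without other annotated exons (a subset chosen after seeing the data, which leaves out both falling introns) and 1 without any library. Spliced reads gave 297 rises and 474 falls among the 1119 members with 300 reads, and 667 falls with DESeq2; the replicate block gave 634 and 1086, and 808 and 923 for recovery. GAPDH spliced reads reversed to 0.21 with TMM, 0.21 with median-of-ratios and 0.21 with DESeq2, from -0.02 with depth scaling, which was not past the threshold. The GC difference from responding introns, in the exon after the intron, was -1.65 in the longest introns. Of 67 named tests, 45 passed the threshold, and 20 lost the call or reversed under at least 1 alternative. The cause of these changes was not tested. The branch point window of 100 bases was not run, since too few intron ends are known.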
